A study of Mus musculus with 6 samples.

Results

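The organic matrix of bone is mostly type I collagen, and the remainder is made up of non-collagenous proteins that bind mineral, collagen or cells. The 8 genes described here encode the best known of these in the mouse, namely Spp1 (osteopontin), Ibsp (bone sialoprotein), Dmp1 (dentin matrix protein), Mepe (matrix extracellular phosphoglycoprotein), Sparc (osteonectin), Bglap and Bglap2 (osteocalcin) and Ifitm5 (also known as Bril, a membrane protein of osteoblasts rather than a secreted one). They were taken by name from the deposited table, and all 8 were found among its 55471 genes. Of these, 3 (Spp1, Sparc and Ibsp) had enough counts to be tested and 5 did not.

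Polyadenylated RNA was sequenced from primary osteoblasts of the calvaria, the skull cap, of C57BL/6 mice aged 3 days, with 3 libraries labelled WT and 3 labelled TCKO. The paper's methods give 3 days of culture before harvest and describe no osteogenic induction for the sequenced cells. TCKO stands for the triple conditional knockout, in which homozygous floxed alleles (Tet1fl/fl, Tet2fl/fl and Tet3fl/fl) were combined with Prx1-Cre, a recombinase driven by the Prx1 promoter and active in limb and skull mesenchyme. The recombinase is meant to delete parts of Tet1, Tet2 and Tet3, which encode enzymes that oxidise methylated cytosine in DNA. Whether the WT mice carried Cre or floxed alleles is not given in the sources used here. Neither is it stated that the libraries came from separate animals or cultures, so p-values measure only the spread between these libraries, which may be technical.

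Spp1, Ibsp, Dmp1 and Mepe lie side by side in a cluster on chromosome 5 and encode secreted phosphoproteins that carry an integrin-binding RGD motif. Osteopontin holds cells to mineral and slows crystal growth, and it is also made by macrophages, osteoclasts and smooth muscle cells. Bone sialoprotein binds mineral and marks osteoblasts that are laying down matrix, whereas Dmp1 and Mepe are typical of osteocytes, the cells buried in bone. Osteonectin binds collagen and is abundant in many mesenchymal cells, and osteocalcin is a vitamin K-dependent protein made late in osteoblast maturation.

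The libraries held between 8019999 and 10177214 counts. Replicates 1 and 2 of each genotype were much closer to each other (biological coefficient of variation 3.0% in WT and 3.62% in TCKO) than either was to replicate 3 (between 16.4% and 18.4%). The share of mitochondrial counts was 2.22% and 2.47% in the replicate 3 libraries of WT and TCKO and between 1.11% and 1.24% in the others. The female-specific Xist had 4583 counts in TCKO replicate 3 and at most 4 in each of the other 5 libraries, and the Y-linked Ddx3y had 0 there and at least 675 in each of the others. Summed over all exons, Tet1 was lower in TCKO (log2 fold change -0.97 ± 0.16 (SE), adjusted p = 0.00649), Tet2 did not pass the test (-0.14 ± 0.14, adjusted p = 0.545) and Tet3 was higher (0.51 ± 0.09, adjusted p = 0.00744), and counts per gene do not show whether single exons were lost, so genotypes are named by their labels.

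Levels are given below as CPM (counts scaled to library size, here with TMM factors) and, for comparisons between genes, as RPKM (CPM per kilobase of summed exon length). Differences are log2 fold changes of TCKO over WT, and a gene is called higher or lower when its adjusted p is under 0.05 in edgeR's quasi-likelihood test. A difference in bulk RNA cannot tell apart a changed share of cells of a type from a changed amount of RNA per cell.

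The promoters of Spp1 and Ibsp are shown because these genes are neighbours on chromosome 5 with different results. The stretches, from RefSeq in build GRCm38.p6, are on the plus strand and end before the first base of the gene in both RefSeq and the deposited table (chr5:104434861-104435110 for Spp1 and chr5:104299037-104299170 for Ibsp). Capitals mark the Runx core TGTGGT or its complement ACCACA, the letters bound by the osteoblast transcription factor Runx2.
Spp1: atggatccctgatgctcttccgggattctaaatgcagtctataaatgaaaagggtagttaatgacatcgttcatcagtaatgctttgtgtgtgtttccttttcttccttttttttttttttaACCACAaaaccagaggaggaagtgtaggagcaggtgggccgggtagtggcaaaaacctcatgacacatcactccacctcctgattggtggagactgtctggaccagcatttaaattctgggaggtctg
Ibsp: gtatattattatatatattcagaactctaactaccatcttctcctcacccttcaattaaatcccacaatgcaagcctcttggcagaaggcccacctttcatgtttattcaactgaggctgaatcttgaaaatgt

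The Spp1 stretch of 250 bases held 1 such match, between 128 and 123 bases before the RefSeq start site, and 3 CG dinucleotides. The Ibsp stretch of 134 bases held 0 matches and 0 CG dinucleotides. The Ibsp gene as deposited starts 116 bp before its RefSeq start site, so this stretch leaves out the bases nearest that site. The counts of the 2 stretches are therefore not alike, and any part of these sequences in the different results was not tested. Promoter windows of 300 bases (from 250 before to 50 after the start site) were found for 7 of the 8 genes, all but Bglap2. Of the full windows, those at the starts of Spp1, Dmp1, Sparc and Bglap held 1 match each, that of Mepe held 2, and those of Ibsp and Ifitm5 held 0. Spp1 and Dmp1 each had a further window, with a start site 1074 bp and 5038 bp from the deposited gene start, and these held 0 matches. Among all 32851 windows, 16.8% held at least 1 match, which is a match of letters and not a measured site. The median over all windows was 7 CG dinucleotides (quartiles 3 and 20), and the full windows at the starts of Spp1, Ibsp and Sparc held 3, 5 and 4. The RefSeq start site of the Sparc window lies 3103 bp inside the gene as deposited, and the match in that window lies 36 to 41 bases after this site.

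The genes fell into abundant ones and ones barely seen. Sparc and Spp1 were among the most abundant transcripts per length in every library, Ibsp was present at a few RPKM, and Dmp1, Mepe, Bglap, Bglap2 and Ifitm5 had at most 5 counts in any library. In WT, Sparc stood at 2602 ± 256 RPKM (SD, n = 3), Spp1 at 707 ± 312 and Ibsp at 2.66 ± 0.50. In TCKO the order of the abundant pair was reversed, with Spp1 at 4337 ± 2023 RPKM and Sparc at 1343 ± 95.5, and Ibsp stood at 2.03 ± 1.54.

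**Figure D1:**
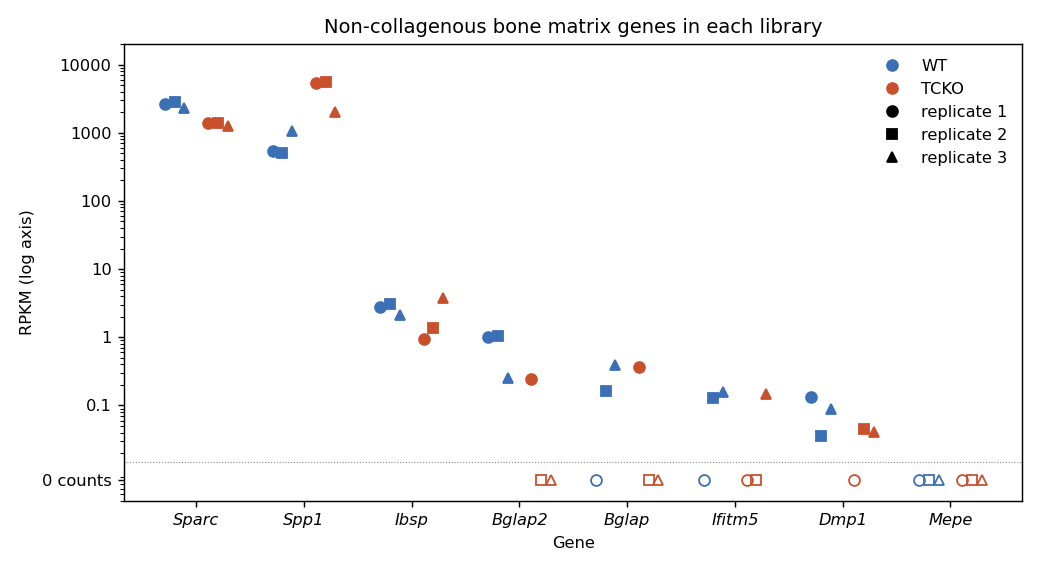
RPKM (log axis) of the 8 genes in each of the 6 libraries, with WT in blue, TCKO in orange, a symbol for each replicate number and open symbols on the lowest line for 0 counts. Sparc is above Spp1 in all 3 WT libraries and below it in all 3 TCKO libraries, and the 5 genes on the right hold at most 5 counts in any library.

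The ratio of Spp1 to Sparc RPKM within a library was 0.203, 0.182 and 0.46 in replicates 1, 2 and 3 of WT and 3.87, 4.0 and 1.62 in those of TCKO. The groups did not overlap, and TCKO replicate 3 lay closest to the WT libraries. The mean ratio was 0.282 ± 0.155 (SD, n = 3) in WT and 3.17 ± 1.34 (SD, n = 3) in TCKO. A two-sided exact permutation test gave p = 0.1, the smallest value that 3 libraries against 3 allow. Spp1 was higher and Sparc lower in every TCKO library than in any WT library. The ratio was therefore bound to separate the groups, and its p adds nothing to the results of the 2 genes.

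Of the 8 genes, 1 (Spp1) was higher in TCKO and 1 (Sparc) was lower at an adjusted p under 0.05, while 9.08% of the 13826 tested genes were higher and 8.63% lower, 17.7% in all. The groups did not overlap for either gene, as was the case in the higher direction for 19.5% of tested genes and in the lower direction for 18.9%. Spp1 also passed a fold change of 2, which 3.16% of tested genes did in the higher direction. Sparc did not pass it in the lower direction, as 3.19% of tested genes did.

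Osteopontin transcripts were higher in TCKO. Spp1 (ENSMUSG00000029304, chromosome 5, 104435118 to 104441050, plus strand) was counted 7407, 8469 and 14539 times in replicates 1, 2 and 3 of WT and 78098, 74574 and 29517 times in those of TCKO. This corresponded to 894.6, 842.9 and 1758 CPM in WT and 8893, 9247 and 3303 CPM in TCKO. All TCKO libraries were above all WT libraries, with replicate 3 the highest of the WT libraries and the lowest of the TCKO libraries. The mean was 1165 ± 514 CPM (SD, n = 3) in WT and 7148 ± 3334 CPM in TCKO, a 6.13-fold difference (log2 fold change 2.62 ± 0.44 (SE), adjusted p = 0.0067). When the counts of the close replicates 1 and 2 were summed into 1 library per genotype, the log2 fold change was 2.24 and the call was lost (adjusted p = 0.123).

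Spp1 took between 0.0832% and 0.175% of all counts in WT and between 0.337% and 0.93% in TCKO. By RPKM it ranked 85, 93 and 39 among all genes in replicates 1, 2 and 3 of WT and 2, 2 and 13 in those of TCKO. In both genotypes it was therefore a leading transcript, and in TCKO replicates 1 and 2 a single gene ranked above it.

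The size of the Spp1 difference was not the same in all replicates. TCKO over WT was 9.94-fold between the libraries numbered 1, 11-fold between those numbered 2 and 1.88-fold between those numbered 3. In WT, replicate 3 was 2.02 times the mean of replicates 1 and 2, and in TCKO it was 0.364 times that mean. A term for the difference of the genotype effect between replicate 3 and replicates 1 and 2, chosen after seeing the data, gave -2.47 ± 0.05 on the log2 scale (adjusted p = 1.26e-53 in edgeR). That term was called in 14.5% of all tested genes, and it rests on 2 residual degrees of freedom, both from the spread between the close replicates 1 and 2. Replicate 3 differed from the others in the mitochondrial share in both genotypes and in the sex-linked genes in TCKO, and the part of either in this difference was not tested.

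Osteonectin transcripts were lower in TCKO. Sparc (ENSMUSG00000018593, chromosome 11, 55394500 to 55423183, minus strand) was counted 83826, 107147 and 72597 times in replicates 1, 2 and 3 of WT and 46355, 42877 and 41753 times in those of TCKO, or 10125, 10664 and 8779 CPM against 5279, 5317 and 4672 CPM. Every TCKO library was below every WT library. The mean was 9856 ± 971 CPM (SD, n = 3) in WT and 5089 ± 362 CPM in TCKO (log2 fold change -0.95 ± 0.12 (SE), adjusted p = 0.00198).

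In contrast to Spp1, the Sparc ratio of TCKO to WT was nearly the same in each replicate, at 0.521, 0.499 and 0.532 for replicates 1, 2 and 3. The difference of its genotype effect between replicate 3 and the others was 0.06 ± 0.04 (adjusted p = 0.406 in edgeR). By RPKM, Sparc ranked 10, 10 and 14 among the genes of the WT libraries and 24, 24 and 29 among those of the TCKO libraries. With replicates 1 and 2 summed, the log2 fold change was -0.94 and the call was lost (adjusted p = 0.0934).

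Bone sialoprotein transcripts were low and their difference depended on the replicate. Ibsp (ENSMUSG00000029306, chromosome 5, 104299171 to 104311469, plus strand) was counted 48, 64 and 36 times in replicates 1, 2 and 3 of WT and 17, 23 and 70 times in those of TCKO, or 5.80, 6.37 and 4.35 CPM against 1.94, 2.85 and 7.83 CPM. TCKO replicates 1 and 2 were below all WT libraries and TCKO replicate 3 was above them, so that the groups overlapped. The mean was 5.51 ± 1.04 CPM (SD, n = 3) in WT and 4.21 ± 3.17 CPM in TCKO, and the difference did not pass the test (log2 fold change -0.38 ± 0.47 (SE), adjusted p = 0.62).

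The ratio of TCKO to WT for Ibsp was 0.334 and 0.448 for replicates 1 and 2 and 1.80 for replicate 3. The difference of the genotype effect between replicate 3 and the others was 2.20 ± 0.42 on the log2 scale (adjusted p = 3.21e-05 in edgeR, the same term as for Spp1). Without TCKO replicate 3, Ibsp was lower in TCKO by a log2 fold change of -1.21 (adjusted p = 0.0252), and without replicate 3 of both genotypes by -1.36 (adjusted p = 1.73e-05). The latter p measures only the spread between the close replicates 1 and 2. Between replicate 3 and the mean of replicates 1 and 2, Ibsp and Spp1 moved in opposite directions in both genotypes. In WT, replicate 3 was 0.716 times that mean for Ibsp and 2.02 times for Spp1, and in TCKO it was 3.27 times for Ibsp and 0.364 times for Spp1.

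**Figure D2:**
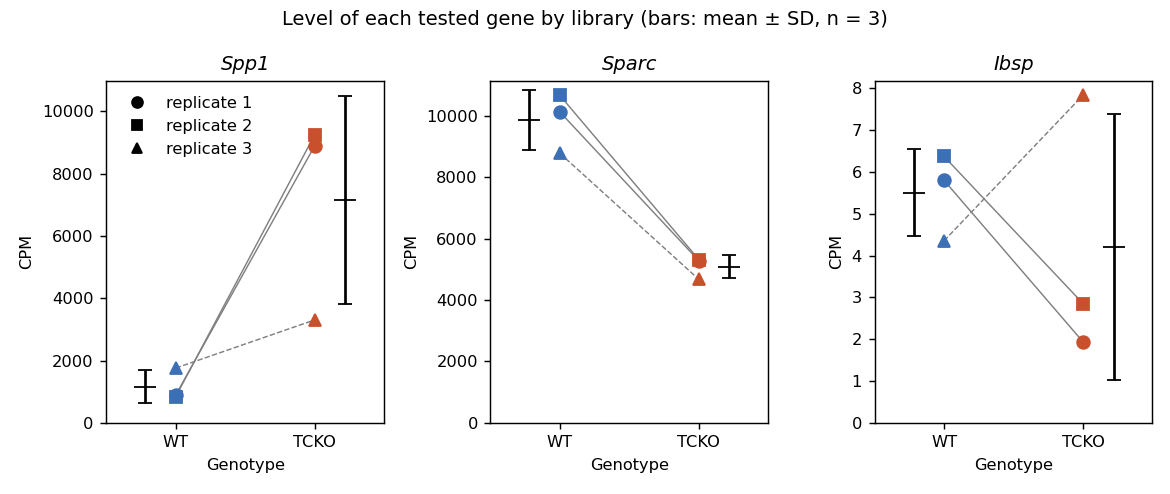
CPM of Spp1, Sparc and Ibsp in each library by genotype, with lines joining libraries of the same replicate number (dashed for replicate 3) and black bars for the mean ± SD of 3 libraries. The lines for Sparc run parallel, the Spp1 line of replicate 3 rises only 1.88-fold, and the Ibsp line of replicate 3 runs opposite to those of replicates 1 and 2.

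The genes of late osteoblasts and osteocytes were at or near the limit of detection. A true level of 3 counts per library, which a count of 0 cannot exclude, corresponded to between 0.299 and 0.372 CPM, and such limits cover counting error only. Mepe (chromosome 5, 104325329 to 104338611) had 0 counts in all 6 libraries, which allows up to between 0.178 and 0.221 RPKM. Dmp1 (chromosome 5, 104202613 to 104214102) was counted 3, 1 and 2 times in replicates 1, 2 and 3 of WT and 0, 1 and 1 times in those of TCKO. Ifitm5 (chromosome 7, 140948958 to 140950291) was counted 0, 1 and 1 times in WT and 0, 0 and 1 times in TCKO. These counts were too few for a comparison between the genotypes.

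Osteocalcin is encoded in the mouse by near-identical genes, Bglap (chromosome 3, 88383501 to 88384464) and Bglap2 (chromosome 3, 88377736 to 88378699), beside the related Bglap3. Bglap was counted 0, 1 and 2 times in WT and 2, 0 and 0 times in TCKO, and Bglap3 had 1 count in TCKO replicate 2 and 0 elsewhere. Bglap2 was counted 4, 5 and 1 times in WT and 1, 0 and 0 times in TCKO. Its pooled counts, 10 in WT against 1 in TCKO, were too few for a comparison between the genotypes. In the alternative fit that kept genes with at least 1 count, Bglap2 was not called. Of the 50-base windows in Bglap transcripts, 51.3% also occurred in Bglap2, and of those in Bglap2, 69.2% occurred in Bglap. Because it is not stated how reads matching several genes were counted, the counts of Bglap and Bglap2 are uncertain.

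Of the 50-base windows in Spp1 transcripts, 11.6% also occurred in another gene, all in Gm42793, a transcript on the same strand that covers 309 of the 1648 exon bases of Spp1. Gm42793 had 223 counts over the 6 libraries and was higher in TCKO (log2 fold change 2.25 ± 0.56 (SE), adjusted p = 0.0298, lost in 6 of 19 alternatives), and without WT replicate 3 its log2 fold change was 3.54. Its reads cannot be told apart from those of Spp1 in the overlap, and how such reads were counted is not stated. The windows of Ibsp, Dmp1 and Mepe were not shared with another gene (0%).

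In the fit over all 6 libraries, no tested neighbour of Spp1 was called higher in TCKO other than the overlapping Gm42793. Of 23 genes starting within 0.5 Mb of the Spp1 start, 9 were tested and 8 had 0 counts throughout, among them Mepe and Dspp, the dentin sialophosphoprotein gene. Sparcl1, a relative of Sparc at the far end of the cluster, was lower in TCKO (log2 fold change -1.34 ± 0.38 (SE), adjusted p = 0.0451), on 14, 17 and 14 reads of WT against 3, 7 and 7 of TCKO, and the call was lost in 13 of 19 alternatives, with any of the 6 libraries left out among them. The next gene after Spp1, the polycystin gene Pkd2, had a log2 fold change of -0.35 ± 0.11 (adjusted p = 0.0547). The others that did not pass the test were Hsd17b11 (0.22 ± 0.12, adjusted p = 0.259), Nudt9 (0.15 ± 0.12, adjusted p = 0.419), D930016D06Rik (-0.36 ± 0.13, adjusted p = 0.094), Gm8258 (-0.13 ± 0.28, adjusted p = 0.793), Zfp951 (0.18 ± 0.22, adjusted p = 0.612) and Ibsp, as given above.

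**Figure D3:**
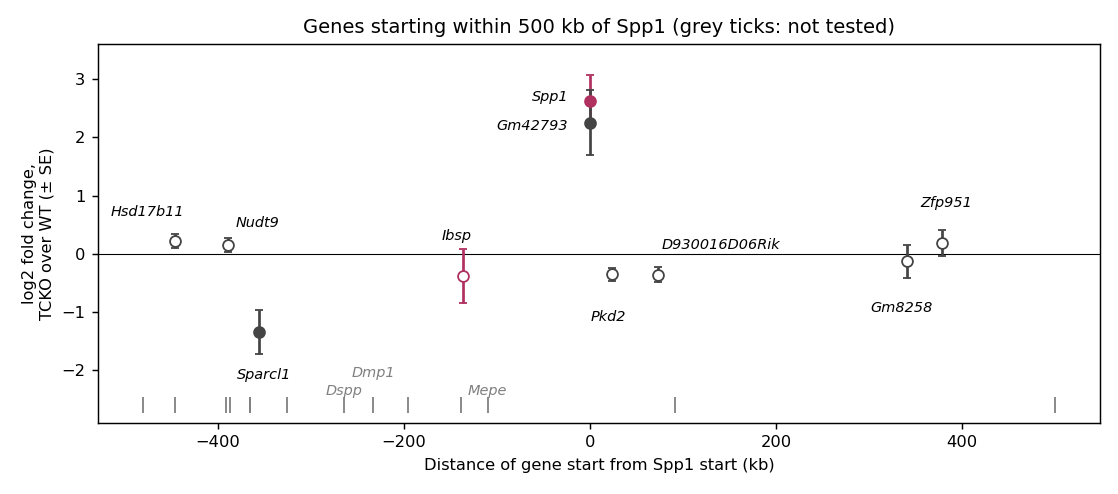
Log2 fold change of TCKO over WT (± SE) against the distance of each gene's start from the Spp1 start in kb, for tested genes within 0.5 Mb, filled where the adjusted p was under 0.05, with grey ticks for genes that were not tested. Spp1 and the overlapping Gm42793 stand at 2.62 and 2.25, and Sparcl1 at -1.34 is the other filled point.

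Genes whose levels over the 6 libraries were most like those of each tested gene were ranked by the root mean square difference of log2 CPM, each gene centred on its own mean, among genes with a mean of at least 10 CPM. The order is a description, since the points share 6 libraries and 2 genotypes. For Spp1, whose own spread about its mean was 1.41, the nearest were Sema7a (0.35), Plat, which encodes tissue plasminogen activator (0.35), Acta1, the skeletal muscle actin gene (0.35), Ahr, the aryl hydrocarbon receptor gene (0.45) and Crabp2, a retinoic acid-binding protein gene (0.45). Plat went from 40.1, 43.6 and 42.3 CPM in WT to 312, 336 and 139 CPM in TCKO, with the lowest TCKO value in replicate 3 as for Spp1.

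For Sparc, with a spread of 0.49, the nearest genes lay much closer, at 0.05 for Dclk1, 0.06 for Efr3b and for Pdgfrb, a receptor of mesenchymal cells, 0.07 for Tbc1d2b and 0.08 for Snai2, a mesenchymal transcription factor. Pdgfrb stood at 485, 480 and 392 CPM in WT and 268, 256 and 215 CPM in TCKO. For Ibsp, with a spread of 0.66, the nearest were Perp (0.17), Rtn4rl1 (0.27), Syt13 (0.27), Ripor2 (0.31) and Spry4 (0.32). Perp, a membrane protein gene, stood at 47.0, 47.5 and 43.5 CPM in WT and 21.0, 30.4 and 69.7 CPM in TCKO, and did not pass the test (log2 fold change -0.19, adjusted p = 0.774 in edgeR).

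The relatives of these genes were read from lists, for which the background over all tested genes was 1193 lower, 1255 higher and a median log2 fold change of 0.00. That background holds for the fit over all 6 libraries without covariates. For the other settings the share of all tested genes called is not given. A list's change in calls between settings can therefore not be set against that of all tested genes. Of 8 cluster and osteocalcin relatives, 6 had 0 counts in all libraries and only Mgp, the matrix Gla protein gene and an inhibitor of calcification, was tested, and it was lower in TCKO (log2 fold change -0.89 ± 0.23 (SE), adjusted p = 0.0342, a call lost in 5 of 20 alternatives, 4 of them with replicate 1 or 2 of a genotype left out). Of 7 tested SPARC family genes, 3 were lower and 3 higher, with a median of -0.23. Smoc1 (-2.49 ± 0.31, adjusted p = 0.00186) and Spock2 (-1.41 ± 0.24, adjusted p = 0.00715) were the lowest, and Spock1 (3.79 ± 0.71, adjusted p = 0.0101) and Spock3 (3.24 ± 0.18, adjusted p = 9.8e-05) the highest. Spock1 moved to 2.92, below Spock3, without TCKO replicate 3 and to 4.54 without WT replicate 2. Of 4 tested relatives of Ifitm5, Ifitm10 was lower (-0.70 ± 0.17, adjusted p = 0.0272) and Ifitm1 higher (2.25 ± 0.42, adjusted p = 0.01), with a median of -0.04. The Ifitm10 call was lost without WT replicate 2, TCKO replicate 1 or TCKO replicate 2 (adjusted p between 0.0607 and 0.0944), and the Ifitm1 call without WT replicate 2 (adjusted p = 0.0508).

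Enzymes that modify or cut these proteins moved in both directions. Of 16 tested, 2 were lower and 3 higher (median log2 fold change 0.07). Mmp2, a gelatinase gene (-0.83 ± 0.13 (SE), adjusted p = 0.00511), and Vkorc1, which recycles the vitamin K used to make osteocalcin (-0.50 ± 0.09, adjusted p = 0.00922), were lower. Mmp3, the stromelysin gene whose product cleaves osteopontin (4.06 ± 0.76, adjusted p = 0.00998), and Tll1, a Bmp1-like protease gene (1.48 ± 0.22, adjusted p = 0.00397), were the most raised. Mmp3 had 0.483, 0.498 and 1.21 CPM in replicates 1, 2 and 3 of WT and 19.2, 14.4 and 3.02 CPM in those of TCKO, and its call was lost without WT replicate 1 or 2 (adjusted p = 0.0501 and 0.0566).

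Receptors of osteopontin and of other matrix proteins also moved both ways, with 4 lower and 3 higher of 12 tested (median log2 fold change -0.15). The collagen-binding integrin genes Itga11 (-2.26 ± 0.39 (SE), adjusted p = 0.00696) and Itga1 (-1.59 ± 0.24, adjusted p = 0.00451) were the lowest. Itga4 (1.68 ± 0.40, adjusted p = 0.0266) and Itga5, the fibronectin receptor subunit gene (0.93 ± 0.13, adjusted p = 0.00341), were the highest. The Itga4 call was lost with any library other than TCKO replicate 3 left out (adjusted p between 0.06 and 0.0984). Among the other matrix protein genes, 7 were lower and 1 higher of 17 tested (median log2 fold change -0.55). Tnn (tenascin W, -3.93 ± 0.30, adjusted p = 0.000228) and Omd (osteomodulin, -3.49 ± 0.41, adjusted p = 0.00151) were the lowest. Bgn (biglycan, -0.55 ± 0.11, adjusted p = 0.0153, between 0.0582 and 0.0758 without WT replicate 1, WT replicate 2 or TCKO replicate 1) was the least lowered, and Tnc (tenascin C, 1.17 ± 0.14, adjusted p = 0.00163) was the one higher.

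Of 16 tested transcription factor genes known to act on these promoters or in osteoblasts, 4 were lower and 2 higher (median log2 fold change -0.16). With the replicate number as a block, 5 were lower and 4 higher. Mef2c (-0.68 ± 0.14 (SE), adjusted p = 0.0136) was among the lower ones, and Gli2 (0.58 ± 0.16, adjusted p = 0.0432) and Msx2 (0.50 ± 0.10, adjusted p = 0.0135) were the higher ones. The Gli2 call was lost in 7 of 20 alternatives, 5 of them with a library other than TCKO replicate 1 left out (adjusted p between 0.062 and 0.113). The Mef2c call was lost without WT replicate 1, TCKO replicate 1 or TCKO replicate 2 (adjusted p between 0.0583 and 0.0593), and the Msx2 call without WT replicate 2 (adjusted p = 0.0649).

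**Figure D4:**
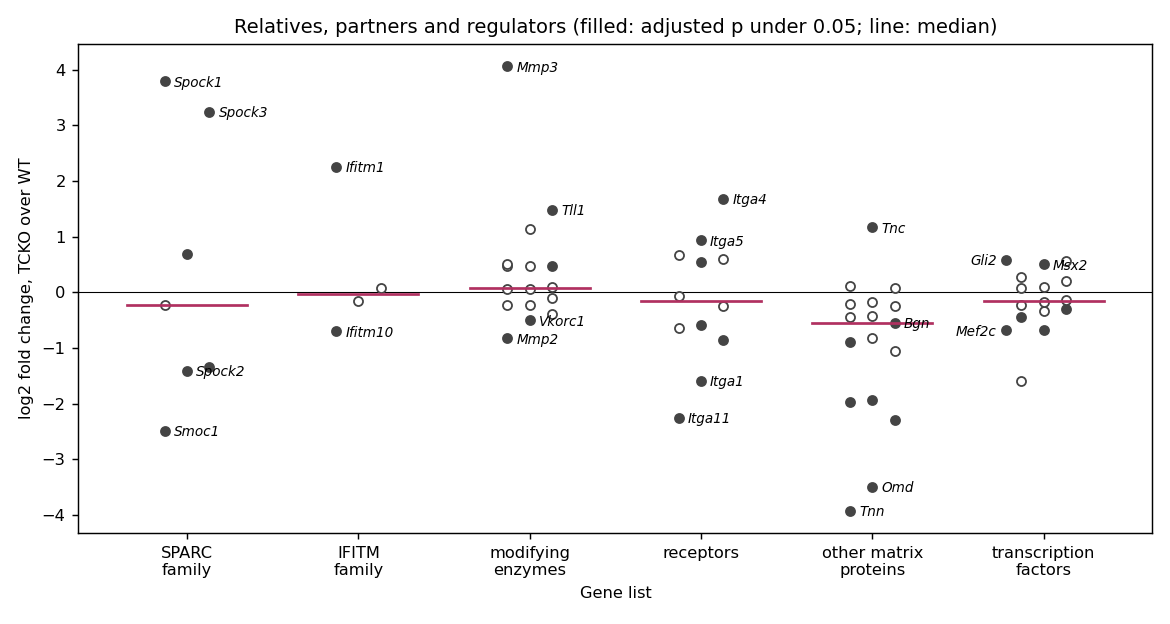
Log2 fold change of TCKO over WT for each tested gene of the lists of SPARC relatives, IFITM relatives, modifying enzymes, receptors, other matrix proteins and transcription factors, filled where the adjusted p was under 0.05, with the list's median as a line. The medians run from -0.55 for other matrix proteins to 0.07 for modifying enzymes.

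Marker lists were read beside these results. Of the 11 osteoblast markers, 4 were lower and 0 higher (median log2 fold change -0.46), or 7 lower with the replicate number as a block and 0 with replicates 1 and 2 summed. Alpl, the alkaline phosphatase gene (-3.54 ± 0.62 (SE), adjusted p = 0.00743), Col1a1 (-0.61 ± 0.16, adjusted p = 0.038) and Runx2 (-0.44 ± 0.07, adjusted p = 0.00397) were among the lower ones. Alpl moved to -2.69 without WT replicate 3, and the Col1a1 call was lost in 7 of 20 alternatives, 4 of them with replicate 1 or 2 of a genotype left out (adjusted p between 0.0765 and 0.134). Runx2 and Col1a1 were well detected in all libraries, at a mean of 95.4 and 22277 CPM in WT, whereas Bglap was at most 2 counts. None of the 4 tested osteocyte markers was called (0 lower, 0 higher at an adjusted p under 0.05 in edgeR or DESeq2, but 1 higher without TCKO replicate 3 and 3 without both replicate 3 libraries). Of the untested ones, Sost and Fgf23 had 0 counts, as Mepe did. Phex had 3, 3 and 5 counts in WT against 13, 12 and 2 in TCKO, and Dkk1 had 0, 1 and 0 against 2, 4 and 9.

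Macrophages and osteoclasts also make osteopontin, and their markers were read beside Spp1. The summed level of 15 macrophage markers ranged from 430 to 832 CPM in WT and from 177 to 619 CPM in TCKO, with 3 of 14 tested lower, 0 higher and a median log2 fold change of -0.91. Most of the sum was Lyz2, at 594, 614 and 324 CPM in WT and 454, 487 and 131 CPM in TCKO. Lyz2 was not called in the fit without the block (-0.52, adjusted p = 0.482). Within each replicate number the sum was lower in TCKO, at 820 against 578, 832 against 619 and 430 against 177 CPM for WT and TCKO replicates 1, 2 and 3. With the replicate number as a block 13 of the 14 were lower, and with replicates 1 and 2 summed 0 were, or 4 with the block as well. The share of all tested genes lower in these settings is not given, so the change in calls cannot be read as particular to these markers. Those lower without the block were Adgre1 (-1.44), Csf1r (-1.21) and Itgam (-1.08), and the calls of Csf1r and Itgam were lost with replicate 1 or 2 of a genotype left out (adjusted p between 0.0529 and 0.113), that of Itgam also without TCKO replicate 3 (adjusted p = 0.054). The sum of 10 osteoclast markers ranged from 183 to 188 CPM in WT and from 66.4 to 74.9 CPM in TCKO, most of it Ctsk (-2.39) and Nfatc1 (-0.54), the 2 lower genes of 4 tested. The paper also cites Ctsk as a marker of periosteal stem cells, so the sum does not measure osteoclasts alone. Of the untested markers, Siglec15 had 0 counts, and Calcr, Dcstamp and Ocstamp at most 1 in any library. Oscar had at most 7, and Atp6v0d2 had 16, 26 and 6 in WT against 7, 4 and 1 in TCKO. The Nfatc1 call was lost with replicate 1 or 2 of a genotype left out (adjusted p between 0.0614 and 0.137). The other 2 tested, Acp5 (0.47, adjusted p = 0.467) and Mmp9 (0.47, adjusted p = 0.674), were not called, and the median of the 4 was -0.04. Mmp9 stood at 0.966, 3.28 and 8.22 CPM in WT against 5.92, 8.8 and 2.57 CPM in TCKO. Without both replicate 3 libraries 2 of the 4 were lower and 2 higher (median 0.29). The part of these cells in the Spp1 difference was not tested.

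Most chondrocyte markers were lower in TCKO. The sum of 10 chondrocyte markers ranged from 7207 to 8920 CPM in WT and from 896 to 1221 CPM in TCKO. Of the 10, 9 were lower (3 with replicates 1 and 2 summed), and the median was -2.09. Col9a1 (-3.26) and Col2a1 (-3.13) were the lowest, and Hapln1 (-1.55) and Sox9 (-1.08) the least lowered of the 9. Matn3 went the other way, at 0.604, 1.09 and 0.846 CPM in WT against 1.71, 1.49 and 1.34 CPM in TCKO. It was not called (0.81, adjusted p = 0.143). Smooth muscle cells can make osteopontin too, and the sum of 8 of their markers ranged from 1943 to 2223 CPM in WT and from 2364 to 2879 CPM in TCKO. Most of that sum was Acta2, at 2015, 1903 and 1706 CPM in WT and 2355, 2421 and 1937 CPM in TCKO. Acta2 overlapped between the groups and was not called (0.26, adjusted p = 0.179). Of 7 tested, 2 were lower (Mylk, -1.63, and Smtn, -0.64) and 2 higher (Cnn1, 1.80, and Tagln, 0.73), with a median of 0.45. The Smtn call was lost without TCKO replicate 1 or 2 (adjusted p = 0.0599 to 0.0755), and with replicates 1 and 2 summed 0 were lower and 1 higher. Endothelial markers summed to between 3.28 and 6.7 CPM and epithelial markers to between 0.112 and 1.24 CPM over the 6 libraries, with 1 and 0 tested genes and 0 calls. Without both replicate 3 libraries, the endothelial gene was called higher and 4 smooth muscle genes were. The part of any of these markers in the differences of Spp1, Sparc and Ibsp was not tested.

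**Figure D5:**
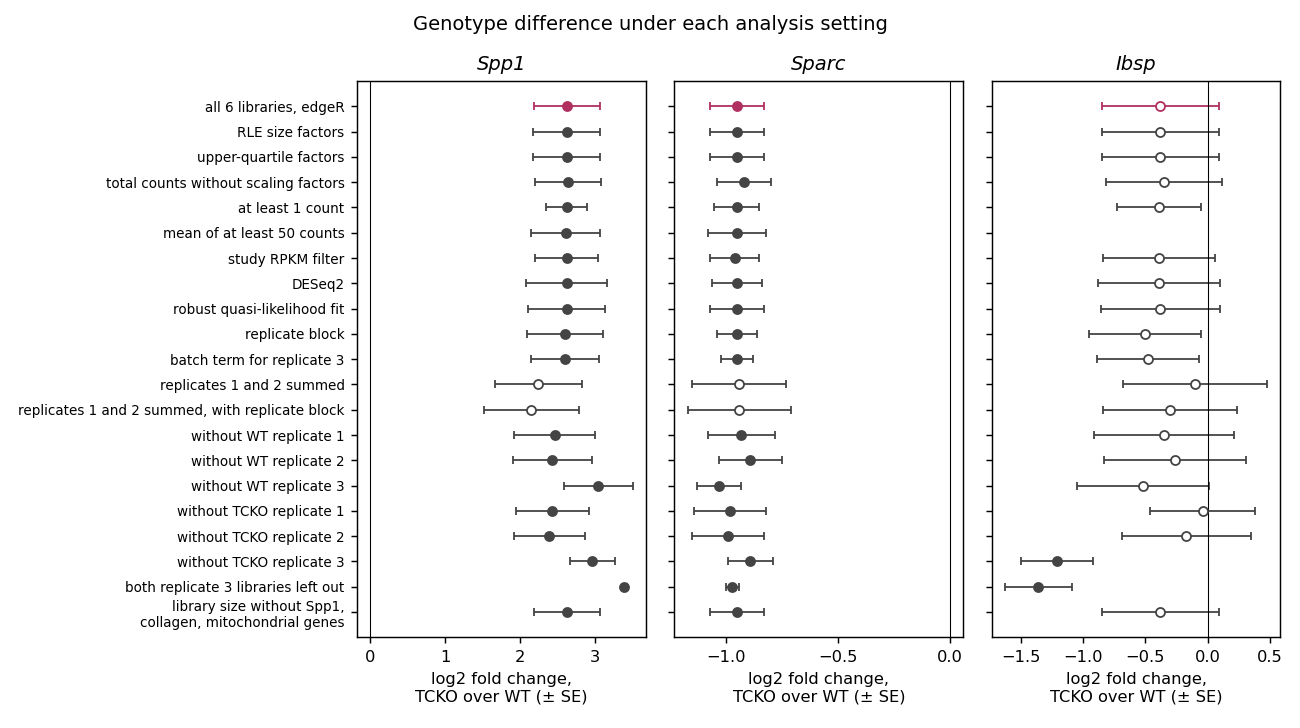
Log2 fold change of TCKO over WT (± SE) for Spp1, Sparc and Ibsp under each analysis setting, filled where the adjusted p was under 0.05 and with the reported fit in red. Spp1 stays between 2.15 and 3.39, Sparc between -1.03 and -0.89, and Ibsp is filled only where TCKO replicate 3 or both replicate 3 libraries were left out.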

How the data were processed

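Per the paper's methods and the submitters' processing notes, the authors demultiplexed with CASAVA, aligned the poly(A) reads to GRCm38 (Ensembl annotation) with STAR 2.7.0e, counted them with featureCounts 2.0.0 and tested with DESeq2. The deposited values are raw counts per gene, without normalization, for 55471 genes. Strand and multi-mapping settings are not given in the sources used here. Groups and replicate numbers came from the sample titles.

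Counts were tested with edgeR 4.0.16 in R 4.3.3 (filterByExpr, leaving 13826 genes, TMM, quasi-likelihood test of genotype over all 6 libraries without covariates, Benjamini-Hochberg adjustment over the tested genes), after checks on simulated data. Standard errors come from the F statistic. Single-value tests were exact permutations. Total counts of 8019999 to 10177214 per library limit precision, with 3 counts equal to 0.299 to 0.372 CPM.

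Same-numbered WT and TCKO libraries deviated together (correlations across genes of 0.204, 0.214 and 0.347 for numbers 1, 2 and 3), so the numbers were taken to pair them, although the crossed pairs of numbers 1 and 2 gave similar values (0.225 and 0.188), so that the check sets replicate 3 apart and does not tell number 1 from 2. The block was run as an alternative.

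The 8 genes, lists and alternatives were chosen with earlier results of these data known. Named genes were the 8, Tet1, Tet2 and Tet3, Bglap3, genes within 0.5 Mb of Spp1, the 2 lowest and 2 highest called genes of each list and the 5 genes most like each tested one. The other genes named from lists were chosen after their values were seen. These were Siglec15, Sost and Fgf23 at 0 counts, Acp5, Mmp9, Calcr, Dcstamp, Ocstamp, Oscar, Atp6v0d2, Phex, Dkk1, Acta2, Lyz2 and Matn3. Xist, Ddx3y and the term for replicate 3 were also chosen after values were seen. The ratio of Spp1 to Sparc was not among the planned results. Alternatives were other scaling (RLE, upper quartile, total counts, totals without Spp1, collagen and mitochondrial genes), other filters (1 count, a mean of 50, RPKM of 0.24), DESeq2 1.42.0, a robust fit, the block, a batch term for replicate 3, replicates 1 and 2 summed, and libraries left out. Protein sequences were not used here, and 1 gene that the rule names is not reported here.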

Additional observations from a re-analysis of the deposited data

Results flagged for a closer look

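The log2 difference between genotypes in replicate 3 minus that in replicates 1 and 2 was -2.47 for Spp1, which was higher in TCKO in both, and 2.20 for Ibsp, which was lower in TCKO in replicates 1 and 2 and higher in replicate 3 (TCKO over WT, edgeR, 2 of the 3 tested genes, against 14.5% of all tested genes). The replicate 3 libraries were set against the others because replicates 1 and 2 lay close together, a choice made after seeing the data, and 2007 genes were called for this term (3541 at an unadjusted p under 0.05). In both genes the replicate 3 values of WT and TCKO moved toward or past each other. Sparc gave 0.06. The cause was not tested.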

How the results depend on the processing

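Of 20 alternatives, 18 kept Spp1 as the 1 gene of the 8 higher in TCKO, and 16 kept Sparc as the 1 lower. With replicates 1 and 2 summed, 0 were higher and 0 lower (Spp1 log2 fold change 2.24, adjusted p = 0.123), and likewise when those sums were fitted with a replicate block (Spp1 2.15, adjusted p = 0.114), a setting in which each genotype has 1 library fewer. Without TCKO replicate 3, or without replicate 3 of both genotypes, 2 were lower, Ibsp and Sparc. Leaving out each library in turn gave 1 to 2 lower, 1 higher each time and a Spp1 log2 fold change of 2.39 to 3.04. Adjusted p-values of the alternatives lay between 1.91e-77 and 0.123 for Spp1, between 8.92e-47 and 0.0934 for Sparc and between 1.73e-05 and 0.967 for Ibsp, which a mean of 50 counts removed. The lowest value of each gene came from leaving out both replicate 3 libraries. Calls in that setting measure only the spread between the close replicates 1 and 2. The replicate block of the paired libraries gave 2.60 for Spp1 (adjusted p = 0.0126), -0.95 for Sparc and -0.50 for Ibsp and changed no call among the 8. Among the genes named by rule and run in the alternatives, the direction was reversed only for Gm8258, which was not called in any setting (log2 fold change between -0.30 and 0.05 with a library left out, and 0.05 without both replicate 3 libraries). With replicates 1 and 2 summed, the calls (lower and higher) were 1 and 1 of SPARC relatives, 4 and 1 of other matrix genes and 0 of IFITM relatives, enzymes, receptors and transcription factors (osteoblast 0, macrophage 0 and chondrocyte markers 3 and 0). With both replicate 3 libraries left out, the calls in those 6 lists were, in the same order, 4 and 3, 13 and 2, 1 and 1, 2 and 8, 6 and 5 and 7 and 5. The share of all tested genes called is not given for either setting, so these counts have no background to be read against. Over 47 other genes, those named by rule from the lists and those tested near Spp1, 810 of 932 values kept direction and call, 109 lost the call, 11 gained it and 2 changed sign. At this depth no difference was called for Dmp1, Bglap, Bglap2 and Ifitm5, also in the fit of genes with at least 1 count. Mepe had 0 counts.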
